A study of Mus musculus with 24 samples.

Results

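The dependence of the neuronal tunicamycin response on Perk was measured by RNA sequencing as a genotype by treatment interaction over all genes, in the 12 neuron libraries of a series of 24 libraries. The neurons were cultured from Perk loxP/loxP mice, so that every group carried the floxed allele and had received a lentivirus: one with active Cre recombinase for Perk KO, and one with the inactive ΔCre form for WT. The 4 groups of 3 libraries were Perk KO neurons with tunicamycin (TM), Perk KO controls, WT neurons with TM and WT controls. Treated cultures spent 24 hours with 5 µg/mL TM from day in vitro 14 per the protocols of the samples, where the series' design text gives a range of 20 to 24 hours, and control cultures the same volume of DMSO. The sources used here do not give the promoter that drives Cre, the age of the mice or the share of transduced cells. The titles number the libraries of a group as biological replicates without naming separate cultures or animals, so each p-value rests on the spread between these 3 libraries per group, part or all of which may be technical.

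The study calls the gene Eif2ak3 by the name of its protein, PERK, a kinase of the endoplasmic reticulum (ER) membrane. When unfolded proteins accumulate in the ER it phosphorylates the translation factor eIF2, which lowers protein synthesis in general and raises translation of the transcription factor ATF4 and, downstream of it, of CHOP (Ddit3). The other sensors of the same stress are IRE1 (Ern1), which splices the mRNA of Xbp1, and ATF6, which is cut into a transcription factor, and both are known for inducing ER chaperones. TM blocks N-linked glycosylation and so makes proteins misfold in the ER. The comparison asks how much of the response to it differs between neurons with and without the kinase.

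For each gene the interaction is the log2 change with TM in Perk KO neurons minus that in WT neurons. A negative value means a smaller rise or a deeper fall in Perk KO neurons, and a positive value a smaller fall or a larger rise. All changes are log2 fold changes ± standard error from edgeR's quasi-likelihood test on the raw counts of the 12 libraries, a gene with a Benjamini-Hochberg adjusted p under 0.05 was called, and levels are CPM (TMM-normalised counts scaled to the library total), listed for replicates 1, 2 and 3. CPM are not scaled by gene length, so levels are compared between groups of libraries and not between genes.

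Total counts per library lay between 16.0 and 25.9 M. On the first principal component of log2 CPM, which held 46.1% of the variance, TM-treated Perk KO neurons stood at -13.9 to -3.76 and Perk KO controls at -38.4 to -36.4, against TM-treated WT neurons at 65.7 to 69.6 and WT controls at -27.3 to -19.5. TM-treated Perk KO replicate 2 lay apart from its group on the second component, at -52.6 against -35.7 and -32.2. The 15 neuron markers, among them Rbfox3, Map2 and Tubb3, were all detected, and their summed level was 3240 to 3638 CPM in TM-treated neurons of both genotypes and 5541 to 6730 CPM in controls. Astrocyte markers were present as well, with a sum of 5844 to 6034 CPM in Perk KO controls and 4400 to 4866 CPM in WT controls, so the libraries labelled neurons also held astrocyte transcripts. These are bulk libraries, in which fewer cells of a type and less RNA per cell cannot be told apart.

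The targeted gene was low in every Perk KO library. Eif2ak3 (ENSMUSG00000031668, chromosome 6, positions 70844515 to 70905245, forward strand in GRCm38) had 9.53, 11.9 and 15.9 CPM in TM-treated and 5.63, 5.08 and 5.03 CPM in control Perk KO neurons, against 140.4, 134 and 148 CPM in TM-treated and 36.8, 35.7 and 31.6 CPM in control WT neurons. No Perk KO library overlapped a WT library of either treatment, and Perk KO neurons held 15.1% of the WT level in controls and 8.84% with TM. The remaining transcripts rose with TM by 1.24 ± 0.16 in Perk KO neurons and by 2.02 ± 0.15 in WT neurons, an interaction of -0.78 ± 0.22 (adjusted p = 0.0184). The counts cover the whole gene and do not resolve the part removed by Cre.

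Loss of Perk went with a weaker response in both directions. Of 15939 genes tested, 4753 (29.8%) had a called interaction, 2449 lower (15.4% of genes tested) and 2304 higher (14.5%). TM alone changed 4861 genes in Perk KO neurons (30.5%), of which 2685 rose (16.8%) and 2176 fell (13.7%), and 8122 in WT neurons (51.0%), of which 4421 rose (27.7%) and 3701 fell (23.2%). Of the WT risers, 2006 had a called lower interaction, and of the WT fallers 1771 had a called higher one. The interaction subtracts the WT response that picked these genes, so both counts are a description. The balance of lower and higher interactions moved with the settings of the fit. The median interaction of all genes was -0.078 in the fit of the 12 neuron libraries, where 51.5% of the calls were lower. With DESeq2 size factors in place of TMM, a change of the scaling alone, it was -0.011, and 44.1% were lower. In a fit of all 24 libraries it was 0.050, and 38.1% were lower (1650 lower and 2684 higher). That fit also changed the estimate of the spread and the genes tested, and the part of scaling in its shift was not tested.

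The genes with a called interaction were sorted by the calls of the responses themselves. The largest classes were 1331 genes that rose in WT neurons and 1162 that fell in WT neurons, each without a called response in Perk KO neurons. A further 534 genes rose in both genotypes with a smaller rise in Perk KO neurons (median response 0.65 in Perk KO and 1.57 in WT neurons), and 282 fell in both with a smaller fall (median -0.56 in Perk KO and -1.41 in WT neurons). Responses in opposite directions were called for 327 genes that rose in Perk KO and fell in WT neurons and for 141 that fell in Perk KO and rose in WT neurons. Responses of the Perk KO neurons alone were called for 420 genes that rose and 310 that fell. A larger rise in Perk KO neurons was called for 45 genes and a deeper fall for 42. Several of the smaller classes rested on single libraries. Without TM-treated Perk KO replicate 2, 708 genes fell in Perk KO neurons alone, 256 fell in Perk KO and rose in WT neurons, and 84 fell deeper. That class of opposite responses held between 80 and 93 genes without any one Perk KO control or without WT control replicate 1 or 2, and the class of smaller falls between 179 and 186 without Perk KO control replicate 2 or 3 or TM-treated Perk KO replicate 3. The 206 genes without Perk KO control replicate 3 were the fewest that fell in Perk KO neurons alone. Deeper falls numbered between 21 and 27 without Perk KO control replicate 1, WT control replicate 1 or 2 or TM-treated WT replicate 1 or 2, and larger rises between 19 and 29 without WT control replicate 2 or any one TM-treated WT library.

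**Figure D1:**
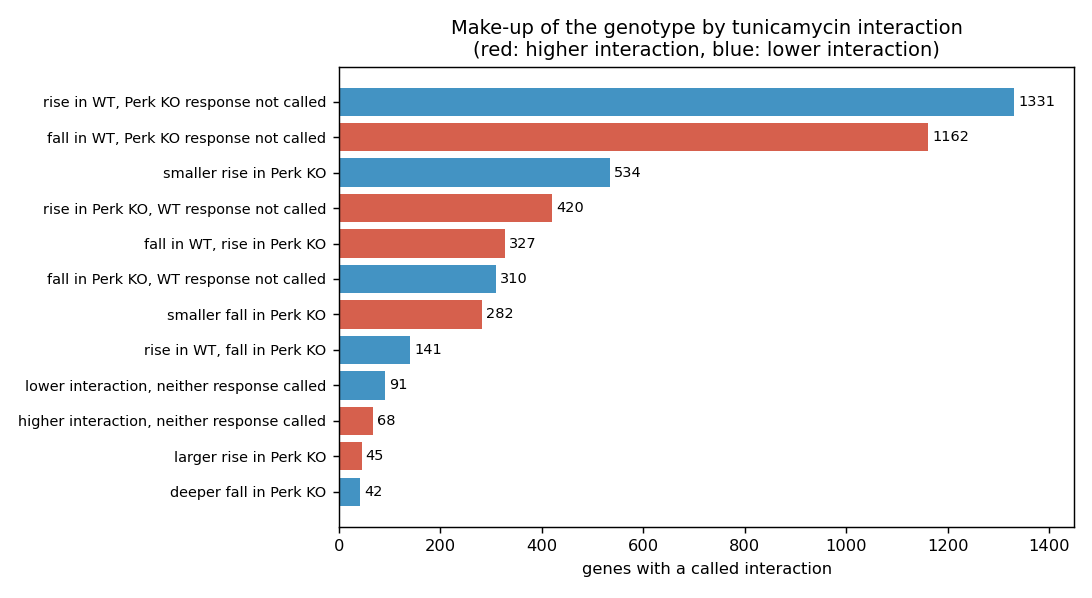
Number of genes with a called interaction in each class, by whether the TM response was called in Perk KO and in WT neurons. Blue bars are lower interactions and red bars higher ones. The longest bars, 1331 and 1162 genes, are genes that changed with TM in WT neurons without a called response in Perk KO neurons.

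Part of the response of the strongest WT responders remained in Perk KO neurons. The 125 genes that rose by more than 3 log2 units in WT neurons had a median response of 1.58 in Perk KO and 3.88 in WT neurons, and at the median 42.2% of the WT log2 change was kept. For 89 of them the interaction was called as a weaker response in Perk KO neurons, and for 0 as a stronger one, by edgeR's adjusted or unadjusted p and by DESeq2. The 75 genes that fell by more than 3 log2 units in WT neurons had a median of -0.76 in Perk KO and -3.36 in WT neurons, with 20.3% kept and 60 called weaker. These genes were chosen by their WT response, which the interaction subtracts, so weaker calls are favoured and stronger ones disfavoured. The medians, the shares kept and the counts of calls, by either tool, are a description. Across the 15939 genes the responses of Perk KO and WT neurons, which share no library, had a Pearson correlation of 0.448 and a Spearman correlation of 0.392, and their spread across genes was 0.606 (SD, log2) in Perk KO and 0.946 in WT neurons.

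**Figure D2:**
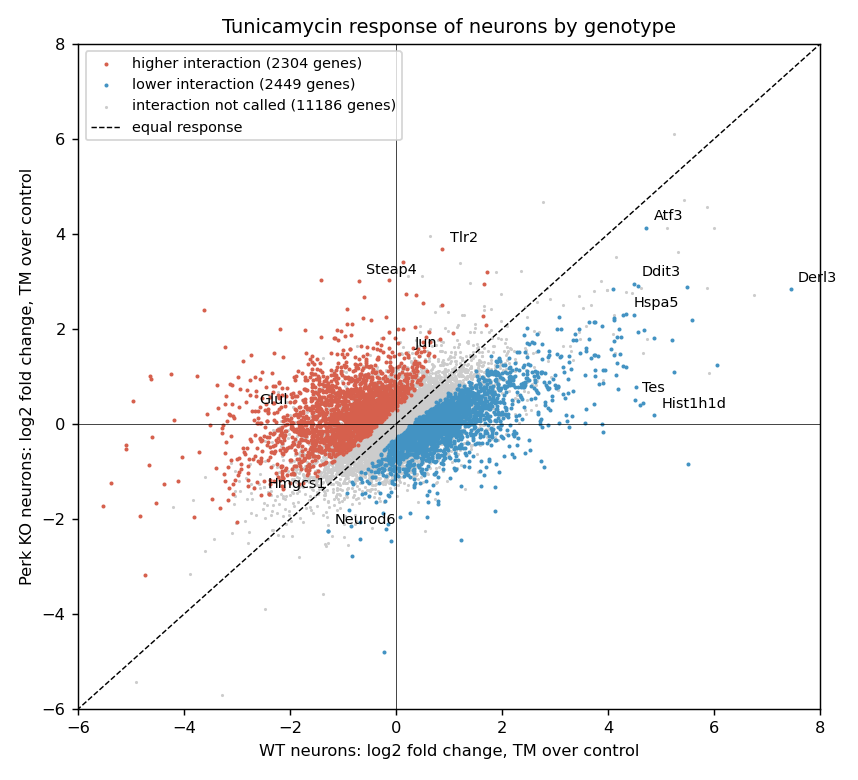
Log2 fold change with TM of each of the 15939 genes tested, in Perk KO neurons (vertical axis) against WT neurons (horizontal axis). Blue points have a called lower interaction, red points a called higher one, grey points none, and the dashed line marks equal responses. Derl3, Hspa5, Ddit3 and Tes lie below the line on its right side, and Hmgcs1 and Glul above the line on its left side.

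Most genes with a called interaction did not differ between the controls by the call. Of the 4753 genes called, 3408 differed between Perk KO and WT neurons with TM and not in controls, 484 in controls only, 615 in both and 246 in neither. Over all genes 7630 (47.9%) differed between the genotypes with TM, 4149 lower (26.0%) and 3481 higher (21.8%) in Perk KO. Controls of the genotypes differed at 2993 genes in all (18.8%), 1549 higher (9.72%) and 1444 lower (9.06%) in Perk KO. With the replicate number of each treatment as a block, a pairing that the titles do not state, 4604 differed, 2519 of them higher. The count without the block rested on single libraries: it was 1786 without Perk KO control replicate 1, 518 without Perk KO control replicate 2, 521 without WT control replicate 2, 601 without Perk KO control replicate 3 and 606 without WT control replicate 1. Across genes the control difference had a Spearman correlation of -0.439 with the GC content of the longest transcript, and the interaction one of 0.238. A fit corrected for GC content called 920 genes higher in Perk KO controls.

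Genes of the ATF4 and CHOP axis, which lies directly downstream of PERK, still rose with TM in Perk KO neurons, but by less. Of the 22 genes on the list 21 rose in Perk KO and 22 in WT neurons, with a median response of 1.47 in Perk KO and 3.10 in WT neurons. The interaction was lower for 17 and higher for 0 of them, beside 15.4% lower over all genes, and its median was -1.24 beside -0.078 over all genes. Counts of 0 called members, here and for the lists that follow, were 0 as well by DESeq2 and at an unadjusted p under 0.05 in edgeR's test, apart from 1 enzyme of amino acid synthesis by both, and apart from 1 immediate early, 1 interferon-stimulated, 1 heat shock and 1 microglia gene at the unadjusted p only. Between the controls, 1 reactive astrocyte gene was lower in Perk KO at the unadjusted p only.

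Ddit3 encodes CHOP, a transcription factor of prolonged ER stress. It had 334, 257 and 278 CPM in TM-treated and 45.2, 33.0 and 33.7 CPM in control Perk KO neurons, against 1130.4, 1032 and 935 CPM in TM-treated and 47.6, 43.7 and 46.8 CPM in control WT neurons. All TM-treated libraries stood above all controls, and the TM-treated Perk KO libraries stood between the controls and the TM-treated WT libraries. The rise was 7.76-fold in Perk KO and 22.5-fold in WT neurons, and the interaction was -1.53 ± 0.19 (adjusted p = 0.000128). Atf4 itself had 408, 348 and 432 CPM in TM-treated and 222, 198 and 189 CPM in control Perk KO neurons, against 779, 704 and 747 CPM in TM-treated and 238, 223 and 253 CPM in control WT neurons. The groups kept the order seen for Ddit3, and no TM-treated library overlapped a control. The interaction was -0.68 ± 0.14 (adjusted p = 0.00304), and that call was lost in the fit of all 24 libraries (adjusted p = 0.14).

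Targets of ATF4 and CHOP differed in how much of their rise remained. Trib3, a pseudokinase that restrains AKT signalling, had 18.7, 20.9 and 20.0 CPM in TM-treated and 5.13, 3.58 and 3.99 CPM in control Perk KO neurons, against 95.7, 80.6 and 87.4 CPM in TM-treated and 5.83, 4.52 and 4.8 CPM in control WT neurons. Its controls overlapped and its TM-treated groups were far apart, with an interaction of -1.90 ± 0.20 (adjusted p = 4.58e-05). Chac1, which degrades glutathione, had an interaction of -1.49 ± 0.14 (adjusted p = 2.33e-05). Ppp1r15a (GADD34), the inducible subunit of the phosphatase that removes the phosphate from eIF2, rose 4.41-fold in Perk KO and 13.3-fold in WT neurons, an interaction of -1.59 ± 0.11 (adjusted p = 2.32e-06). The lowest interaction on the list was that of Gdf15, a secreted stress cytokine, at -3.00 ± 0.29 (adjusted p = 2.64e-05). Gdf15 had 9.81, 11.5 and 12.2 CPM in TM-treated and 4.82, 8.94 and 5.08 CPM in control Perk KO neurons, against 66.6, 70.9 and 78.5 CPM in TM-treated and 5.07, 4.37 and 5.74 CPM in control WT neurons, so that the TM-treated Perk KO libraries lay just above their controls. Nupr1, a stress-induced chromatin protein, and Ero1l, an ER oxidase, had interactions of -2.53 ± 0.23 (adjusted p = 1.62e-05) and -2.27 ± 0.13 (adjusted p = 7.02e-07). Gadd45a, a growth arrest gene, had an interaction of -1.83 ± 0.17 (adjusted p = 2.1e-05).

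Atf3, a transcription factor induced by ATF4 and by other stress signals, kept most of its rise. It had 138, 132 and 157 CPM in TM-treated and 7.16, 8.55 and 8.69 CPM in control Perk KO neurons, against 180.5, 172 and 169.7 CPM in TM-treated and 7.84, 5.65 and 6.25 CPM in control WT neurons. Both TM-treated groups stood far above all controls and did not overlap each other, and the Perk KO mean was 81.9% of the WT mean. Its interaction of -0.59 ± 0.17 (adjusted p = 0.0223) was lost without Perk KO control replicate 2 or 3, without WT control replicate 2 or without TM-treated WT replicate 1 (adjusted p between 0.0555 and 0.0624), and in the fit of all 24 libraries (adjusted p = 0.388). The 5 members without a called interaction were Atf5, Cebpb, Vldlr, Fgf21 and Tnfrsf10b. Fgf21, a secreted hormone, had a response of 3.52 ± 0.69 in Perk KO and 4.16 ± 0.51 in WT neurons, an interaction of -0.64 ± 1.51 (adjusted p = 0.803).

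Among eIF2 kinases, eIF2 and eIF2B subunits and their phosphatase subunits, 8 of 15, Eif2ak3 itself among them, had a lower interaction and 0 a higher one. The shares of all genes were 15.4% lower and 14.5% higher. Eif2s2, the beta subunit of eIF2, had 143, 176 and 130.1 CPM in TM-treated and 144, 135 and 141 CPM in control Perk KO neurons, against 243, 251 and 159.7 CPM in TM-treated and 84.4, 57.5 and 98.6 CPM in control WT neurons. The libraries of TM-treated Perk KO neurons overlapped their own controls and TM-treated WT libraries, and WT controls were the lowest. The interaction was -1.35 ± 0.28 (adjusted p = 0.00393). Eif2b3, a subunit of the exchange factor that phosphorylated eIF2 inhibits, had 16.0, 14.1 and 15.0 CPM in TM-treated and 18.7, 16.8 and 18.2 CPM in control Perk KO neurons, against 32.4, 39.5 and 31.5 CPM in TM-treated and 17.1, 14.8 and 18.3 CPM in control WT neurons. TM-treated WT libraries stood above all 9 others, and the interaction was -1.29 ± 0.17 (adjusted p = 0.000224). The other eIF2 kinases Eif2ak1 (HRI), Eif2ak2 (PKR) and Eif2ak4 (GCN2) had interactions of -0.08, 0.42 and 0.14, which were not called (adjusted p = 0.589, 0.557 and 0.503).

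**Figure D3:**
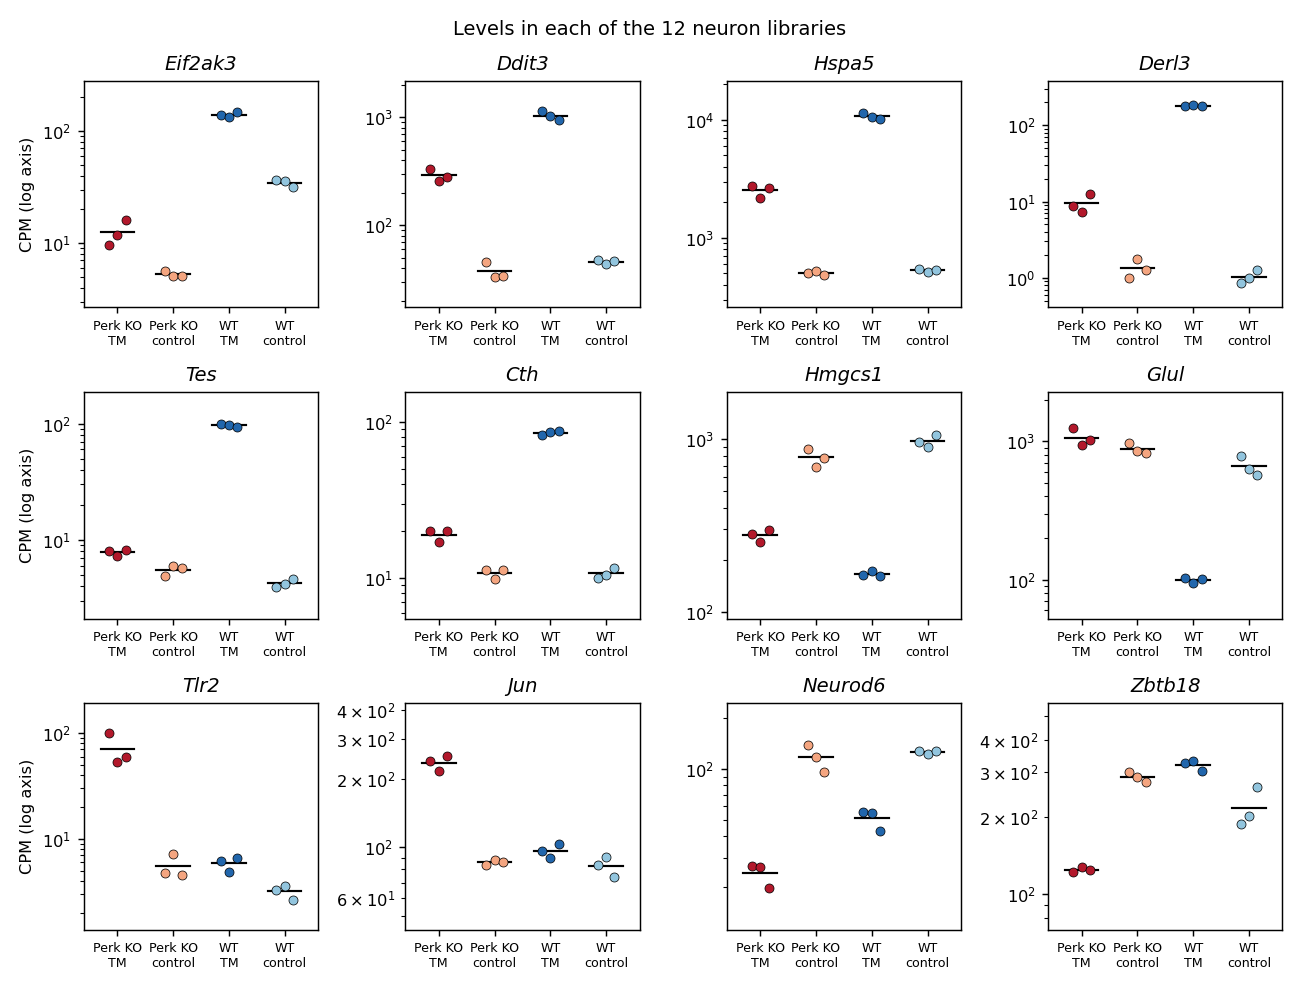
Level in CPM (log axis) of 12 genes in each neuron library, with the mean of each group as a bar; panels have their own ranges. TM-treated Perk KO libraries of Ddit3, Hspa5, Derl3, Tes and Cth lie far below the TM-treated WT libraries, those of Hmgcs1 and Glul lie above them, those of Tlr2 and Jun stand above all other groups, and those of Neurod6 and Zbtb18 below all other groups.

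ER chaperones and folding enzymes, which are known as targets of ATF6 and XBP1, were also less induced. On this list 27 of 28 genes rose in Perk KO and 28 in WT neurons, with medians of 1.09 in Perk KO and 2.41 in WT neurons. The interaction was lower for 22 and higher for 0, beside 15.4% and 14.5% of all genes. The summed level of the list was 11183, 9633 and 10922 CPM in TM-treated and 4001, 4196 and 3957 CPM in control Perk KO neurons, against 34120.0, 33183 and 31902 CPM in TM-treated and 3978, 3819 and 3957 CPM in control WT neurons. The control libraries of both genotypes overlapped in this sum, and the TM-treated groups did not.

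Hspa5 encodes BiP, the main Hsp70 chaperone of the ER. Hspa5 had 2772, 2160.4 and 2649.5 CPM in TM-treated and 508, 528 and 483 CPM in control Perk KO neurons, against 11345, 10614 and 10224 CPM in TM-treated and 540.4, 519 and 534 CPM in control WT neurons. Controls of the genotypes overlapped, and TM-treated Perk KO libraries stood between the controls and TM-treated WT libraries. The rise was 4.99-fold in Perk KO and 20.2-fold in WT neurons, with an interaction of -2.02 ± 0.15 (adjusted p = 3.98e-06). Hsp90b1 (GRP94), the Hsp90 of the ER, had an interaction of -2.48 ± 0.22 (adjusted p = 1.37e-05), and its level in controls was higher in Perk KO neurons by 0.74 ± 0.15 (adjusted p = 0.0121). The lowest interactions of the list were those of Creld2, a secreted disulfide isomerase partner, at -3.40 ± 0.18 (adjusted p = 4.59e-07) and of Pdia4, a protein disulfide isomerase, at -3.05 ± 0.16 (adjusted p = 4.59e-07). Creld2 had 78.4, 61.5 and 79.9 CPM in TM-treated and 14.9, 17.9 and 15.8 CPM in control Perk KO neurons, against 716, 657 and 674 CPM in TM-treated and 16.6, 12.7 and 13.6 CPM in control WT neurons. Its controls overlapped and its TM-treated groups did not. Hyou1, which exchanges nucleotide on BiP, and Sdf2l1, an ER-resident partner of BiP cochaperones, had interactions of -2.29 ± 0.13 (adjusted p = 7.02e-07) and -2.61 ± 0.22 (adjusted p = 1.17e-05). The 6 members without a call were Canx, Cnpy2, Fkbp2, Erp29, Sil1 and Tmx1, with interactions between -0.49 and 0.51.

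ER-associated degradation, which moves misfolded proteins to the cytosol, held the gene with the second lowest interaction of those named. Derl3, a membrane channel component of this pathway, had 8.82, 7.35 and 12.4 CPM in TM-treated and 0.991, 1.79 and 1.26 CPM in control Perk KO neurons, against 176, 182 and 180.2 CPM in TM-treated and 0.854, 0.982 and 1.26 CPM in control WT neurons. It was near 1 CPM in controls of both genotypes, and its rise was 7.14-fold in Perk KO and 175-fold in WT neurons, an interaction of -4.61 ± 0.35 (adjusted p = 4.3e-06). Of the 20 genes of the list 13 had a lower interaction and 0 a higher one, beside 15.4% and 14.5% of all genes. In the fit of all 24 libraries 7 had a lower one. Herpud1 and Sel1l, both parts of the HRD1 ligase complex, had interactions of -2.43 ± 0.13 (adjusted p = 4.59e-07) and -2.00 ± 0.11 (adjusted p = 4.59e-07). Edem1, which trims mannose from misfolded glycoproteins, had -1.62 ± 0.14 (adjusted p = 1.32e-05).

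The sensors of the other arms were in part less induced themselves. Of 10 sensor and processing genes tested 7 rose in each genotype. A lower interaction was called for 4 and a higher one for 0, beside 15.4% and 14.5% of all genes. Atf6 had 99.2, 121 and 111 CPM in TM-treated and 64.3, 61.7 and 64.9 CPM in control Perk KO neurons, against 311, 343 and 333 CPM in TM-treated and 71.8, 76.1 and 83.0 CPM in control WT neurons. No groups overlapped, with Perk KO controls the lowest and TM-treated WT libraries the highest, and the interaction was -1.30 ± 0.12 (adjusted p = 2.21e-05). Ern1 (IRE1) had 11.6, 17.0 and 16.7 CPM in TM-treated and 9.14, 9.66 and 10.98 CPM in control Perk KO neurons, against 28.3, 30.7 and 32.3 CPM in TM-treated and 7.23, 7.37 and 9.65 CPM in control WT neurons. Both TM-treated groups stood above all controls, the Perk KO one by less, and the interaction was -1.31 ± 0.23 (adjusted p = 0.00146). Xbp1 had an interaction of -0.68 ± 0.15 (adjusted p = 0.00464), which the fit of all 24 libraries did not call (adjusted p = 0.0733), and gene counts do not separate its spliced from its unspliced form. Of 24 genes of translocation and ER to Golgi transport linked to XBP1, 11 had a lower interaction and 0 a higher one, beside the same shares. Among them Dnajb9, a BiP cochaperone, rose 4.43-fold in Perk KO and 12.5-fold in WT neurons, an interaction of -1.49 ± 0.17 (adjusted p = 7.51e-05). Sec24d, a coat protein of COPII vesicles, had -1.21 ± 0.12 (adjusted p = 2.66e-05), while the translocon subunits Sec61b and Sec61g rose by 1.44 and 1.16 in Perk KO and by 1.49 and 1.30 in WT neurons without a called interaction.

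The promoters of these genes are shown because the ER stress response element (ERSE) and related motifs are known as the sites through which ATF6 and XBP1 act, and because these genes moved together. RefSeq gave a promoter entry for 11480 of the 15939 genes tested, in GRCm38.p6, with the 250 bases before the start and 50 after it searched on both strands. The ERSE, CCAAT and CCACG with 9 bases of any kind between them, was found in 19 of them (0.166%), in 9 of 1872 genes with a lower interaction (0.481%) and in 1 of 1719 with a higher one (0.0582%). ERSE-II, ATTGG and CCACG with 1 base between them, was found in 7 of the 11480 (0.061%), and all 7 had a lower interaction. The 250 bases before the RefSeq start follow for 3 ER genes with an ERSE and for Hk2 and Tes, which hold none, 5′ to 3′ on the gene's strand, with matches to the ERSE and to the UPRE core TGACGTG, or its reverse complement, in capitals.
Derl3, chr10:75893148-75893397, forward strand: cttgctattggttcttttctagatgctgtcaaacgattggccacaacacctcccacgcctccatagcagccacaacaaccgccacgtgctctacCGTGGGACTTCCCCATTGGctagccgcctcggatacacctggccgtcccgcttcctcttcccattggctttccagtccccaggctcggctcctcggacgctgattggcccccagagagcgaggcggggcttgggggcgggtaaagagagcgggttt
Creld2, chr15:88819396-88819645, forward strand: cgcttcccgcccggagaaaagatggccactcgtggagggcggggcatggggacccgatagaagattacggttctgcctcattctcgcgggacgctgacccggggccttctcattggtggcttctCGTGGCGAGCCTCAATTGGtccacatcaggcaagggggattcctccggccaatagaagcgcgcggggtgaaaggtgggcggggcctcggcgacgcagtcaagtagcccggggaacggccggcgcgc
Hspa5, chr2:34771840-34772089, forward strand: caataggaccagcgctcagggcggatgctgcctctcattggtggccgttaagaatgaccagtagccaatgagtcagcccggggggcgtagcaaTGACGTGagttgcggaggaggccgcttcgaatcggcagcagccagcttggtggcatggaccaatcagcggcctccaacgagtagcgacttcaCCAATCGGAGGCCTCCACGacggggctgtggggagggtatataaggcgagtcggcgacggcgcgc
Hk2, chr6:82774455-82774704, reverse strand: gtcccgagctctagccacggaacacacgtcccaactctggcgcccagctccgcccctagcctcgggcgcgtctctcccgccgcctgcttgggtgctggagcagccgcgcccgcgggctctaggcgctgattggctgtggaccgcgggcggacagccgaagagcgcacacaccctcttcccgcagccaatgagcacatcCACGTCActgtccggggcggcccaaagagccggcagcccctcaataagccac
Tes, chr6:17064899-17065148, forward strand: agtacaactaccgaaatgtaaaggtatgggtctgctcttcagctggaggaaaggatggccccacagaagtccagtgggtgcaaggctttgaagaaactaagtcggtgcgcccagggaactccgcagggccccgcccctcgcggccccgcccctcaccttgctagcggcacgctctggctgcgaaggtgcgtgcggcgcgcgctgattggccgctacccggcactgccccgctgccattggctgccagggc
In Derl3 and Creld2 the ERSE lies on the opposite strand, and in Hspa5 on the gene's own strand, next to a UPRE core farther upstream. Hk2 holds a UPRE core on the opposite strand, and Tes held none of the motifs searched. The RefSeq start of Hspa5 lies 120 bases from the gene start of the deposited tables, that of Derl3 15 bases, and the others coincide. The promoters of Pdia4, an ER folding enzyme, and of Piga and Ddit3 are not shown and held none of the motifs searched.

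The 9 genes with an ERSE and a lower interaction were Alg12, Calr, Creld2, Derl3, Dnajc3, Hsp90b1, Hspa5, Pdia6 and Syvn1, with interactions between -4.61 and -1.06. The gene with a higher interaction was Tdrd9, at 3.49 ± 0.97 (adjusted p = 0.0176). Among the 9 genes with an ERSE and no call, Canx, a lectin chaperone, rose in Perk KO and WT neurons by 0.82 and 1.09, an interaction of -0.27 ± 0.17 (adjusted p = 0.251). The genes with ERSE-II were Dnajb11, Gm46430, Herpud1, Lgalsl, Nucb1, Rbm39 and Rcl1. The element TGATGNAA, found in genes bound by ATF4 and C/EBP factors, occurred in 2.19% of promoters of genes tested, in 3.26% of those with a lower and 2.44% of those with a higher interaction, and the UPRE core in 2.8%, 4.81% and 1.75% of these. In the lists, 7 of 23 promoters of ER chaperone genes held an ERSE, 0 of 20 of the ATF4 and CHOP axis did, and 5 of these 20 held TGATGNAA. A match is a description of the letters and does not show that a factor binds there.

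Genes that supply amino acids and charge tRNAs, known targets of ATF4, followed the same direction. Of 12 amino acid transporters 9, of 15 enzymes that make amino acids or feed one-carbon metabolism 11, and of 20 cytosolic aminoacyl-tRNA synthetases 15 had a lower interaction, and 0 of any of these lists had a higher one. The shares of all genes were 15.4% lower and 14.5% higher. The median response of the transporters was 1.07 in Perk KO and 2.12 in WT neurons, that of the enzymes 0.75 in Perk KO and 1.71 in WT neurons, and that of the synthetases 0.35 in Perk KO and 1.23 in WT neurons. In the fit of all 24 libraries the transporter count was 4.

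Cth, which makes cysteine from cystathionine, had 20.0, 17.0 and 19.9 CPM in TM-treated and 11.2, 9.83 and 11.2 CPM in control Perk KO neurons, against 82.5, 85.8 and 87.1 CPM in TM-treated and 10.1, 10.5 and 11.6 CPM in control WT neurons. The controls of the genotypes overlapped and the TM-treated Perk KO libraries reached 22.3% of the TM-treated WT mean, with an interaction of -2.17 ± 0.15 (adjusted p = 2.14e-06). Pycr1 and Aldh18a1, enzymes of proline synthesis, had interactions of -1.95 ± 0.22 (adjusted p = 6.13e-05) and -1.06 ± 0.12 (adjusted p = 5.51e-05), and Shmt2, of mitochondrial serine metabolism, -1.56 ± 0.12 (adjusted p = 4.3e-06). Asns, the asparagine synthetase often used as an ATF4 readout, had 329, 247 and 268 CPM in TM-treated and 181, 163 and 159 CPM in control Perk KO neurons, against 597, 542 and 527 CPM in TM-treated and 213, 214 and 194 CPM in control WT neurons. No groups overlapped, with TM-treated WT libraries the highest and Perk KO controls the lowest. Its interaction of -0.68 ± 0.15 (adjusted p = 0.00528) was lost in the fit of all 24 libraries (adjusted p = 0.229).

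The glycine transporter Slc6a9 had the lowest interaction of the transporters, -1.68 ± 0.14 (adjusted p = 8.87e-06). It had 66.2, 62.0 and 64.6 CPM in TM-treated and 22.2, 22.1 and 26.9 CPM in control Perk KO neurons, against 176, 172 and 184 CPM in TM-treated and 22.2, 20.5 and 18.7 CPM in control WT neurons. The controls lay close together and both TM-treated groups above them. Slc7a11, which imports cystine, had -1.62 ± 0.48 (adjusted p = 0.0243). Slc3a2, the heavy chain that Slc7a11 and Slc7a5 share, rose by 2.64 ± 0.12 in Perk KO and 2.90 ± 0.12 in WT neurons without a called interaction, at -0.26 ± 0.16 (adjusted p = 0.264). Among the synthetases Tars, which charges threonine tRNA, had 109, 94.4 and 102 CPM in TM-treated and 79.2, 85.3 and 77.6 CPM in control Perk KO neurons, against 285, 272 and 269 CPM in TM-treated and 84.3, 86.8 and 79.3 CPM in control WT neurons. Its TM-treated Perk KO libraries stood just above all controls, and its interaction was -1.38 ± 0.11 (adjusted p = 6.35e-06). Iars, Rars and Vars, for isoleucine, arginine and valine, had interactions of -1.22, -1.25 and -1.21. Sars, for serine, had a response of 0.89 in Perk KO and 1.19 in WT neurons and no called interaction (adjusted p = 0.114).

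Cytosolic ribosomal protein genes gave no stable count. Of 79 genes 3 rose in Perk KO and 50 in WT neurons, with medians of 0.22 in Perk KO and 0.52 in WT neurons. The interaction was lower for 5 and higher for 0, below the 15.4% of all genes that were lower, and with the replicate number of each treatment as a block it was lower for 26. The 5 were Rpl4, Rpl5, Rpl12, Rps6 and Rps15a, with interactions between -0.76 and -0.46. The summed level was 27524, 15766 and 19259 CPM in TM-treated and 19313, 18011 and 16357 CPM in control Perk KO neurons, against 29756, 25743 and 26062 CPM in TM-treated and 21182, 18958 and 15933 CPM in control WT neurons, with the widest spread in TM-treated Perk KO neurons. Without TM-treated Perk KO replicate 1, whose sum is the highest of its group, 47 were called. Without Perk KO control replicate 1 or 2, WT control replicate 2 or TM-treated WT replicate 1, 0 were called, and between 1 and 3 without any one of TM-treated Perk KO replicates 2 and 3, TM-treated WT replicates 2 and 3, Perk KO control replicate 3 and WT control replicate 3. Many of these genes have near-identical pseudogenes, which makes their counts uncertain.

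Several of the lowest interactions belonged to genes outside the lists of the unfolded protein response. Tes encodes testin, a focal adhesion protein. Tes (chromosome 6, positions 17065149 to 17105828, forward strand in GRCm38) had 8.07, 7.29 and 8.25 CPM in TM-treated and 4.91, 5.92 and 5.79 CPM in control Perk KO neurons, against 99.01, 96.7 and 93.8 CPM in TM-treated and 3.97, 4.22 and 4.61 CPM in control WT neurons. In Perk KO neurons the TM-treated libraries stood just above all controls, and TM-treated WT libraries far above them. The level in TM-treated Perk KO neurons was 8.16% of that in TM-treated WT neurons, and the interaction was -3.99 ± 0.16 (adjusted p = 9.15e-08). Hk2, the hexokinase that binds mitochondria, had 8.43, 8.85 and 10.8 CPM in TM-treated and 7.2, 9.83 and 7.54 CPM in control Perk KO neurons, against 55.8, 58.7 and 70.5 CPM in TM-treated and 6.58, 7.22 and 6.18 CPM in control WT neurons. In Perk KO neurons its libraries of both treatments overlapped, and the interaction was -3.01 ± 0.22 (adjusted p = 3.37e-06). Acox2, an oxidase of branched fatty acids in peroxisomes, had an interaction of -3.88 ± 0.38 (adjusted p = 2.48e-05), with a response of 0.00 ± 0.27 in Perk KO and 3.89 ± 0.27 in WT neurons. Piga, which starts the synthesis of GPI anchors, had -3.27 ± 0.29 (adjusted p = 1.41e-05), and Steap1, a membrane metalloreductase relative, -3.46 ± 0.39 (adjusted p = 7.01e-05). Fibin, a secreted protein, had -3.44 ± 0.38 (adjusted p = 5.58e-05). Adamts14, a secreted metalloprotease, had 4.49, 5.01 and 5.95 CPM in TM-treated and 6.35, 12.7 and 20.1 CPM in control Perk KO neurons, against 25.5, 25.99 and 33.3 CPM in TM-treated and 5.42, 8.1 and 9.97 CPM in control WT neurons. With TM, Perk KO libraries stood below their controls, which spread widely, and TM-treated WT libraries above all others. The interaction was -3.19 ± 0.48 (adjusted p = 0.00051).

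Linker histone genes were among the strongest. Hist1h1d, encoding histone H1.3, had the lowest interaction of the genes named by size, -4.69 ± 0.41 (adjusted p = 1.37e-05). It had 1.1, 1.28 and 2.36 CPM in TM-treated and 1.44, 1.17 and 1.53 CPM in control Perk KO neurons, against 25.7, 19.6 and 19.7 CPM in TM-treated and 0.804, 0.589 and 0.82 CPM in control WT neurons, so that TM-treated WT libraries stood far above the 9 others and the Perk KO groups overlapped. Of 6 linker histone genes tested 5 had a lower interaction and 0 a higher one, beside 15.4% and 14.5% of all genes. Hist1h1c rose 1.7-fold in Perk KO and 6.1-fold in WT neurons, an interaction of -1.85 ± 0.18 (adjusted p = 2.66e-05), and H1f0, the replication-independent form, had -1.24 ± 0.12 (adjusted p = 2.36e-05). In the fit of all 24 libraries 3 were called. Histone genes have near-identical copies, and their counts are uncertain for that reason.

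Targets of NRF2, the factor of the oxidative stress response that PERK is known to phosphorylate, included genes with a lower interaction. Of 14 genes 6 had a lower interaction, beside 15.4% of all genes, and 2 a higher one, near the 14.5% of all genes, and the median interaction was -0.050. Hmox1, the haem oxygenase, had 329, 244 and 280.4 CPM in TM-treated and 179, 200.3 and 164 CPM in control Perk KO neurons, against 1502, 1519.9 and 1655 CPM in TM-treated and 150.3, 183 and 161 CPM in control WT neurons. With TM, Perk KO libraries stood above all controls and far below TM-treated WT libraries, and the interaction was -2.59 ± 0.17 (adjusted p = 1.75e-06). Txnrd1 and Osgin1, a reductase of thioredoxin and a growth inhibitor, had -0.89 ± 0.13 (adjusted p = 0.000403) and -1.40 ± 0.22 (adjusted p = 0.000709). Nqo1, the quinone reductase often used as the readout of NRF2, had 31.3, 27.0 and 27.9 CPM in TM-treated and 13.7, 17.0 and 12.2 CPM in control Perk KO neurons, against 14.5, 12.8 and 14.6 CPM in TM-treated and 15.5, 14.8 and 12.4 CPM in control WT neurons. The 9 other libraries overlapped below the TM-treated Perk KO ones, and the interaction was 1.03 ± 0.20 (adjusted p = 0.00239). Me1, the malic enzyme, was the other higher gene, at 0.38 ± 0.13 (adjusted p = 0.0366). The count of lower genes was 3 without Perk KO control replicate 1, TM-treated Perk KO replicate 3, WT control replicate 2 or TM-treated WT replicate 2, and the count of higher genes was 1 without any one of 10 libraries, all but TM-treated Perk KO replicate 2 and TM-treated WT replicate 3.

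**Figure D4:**
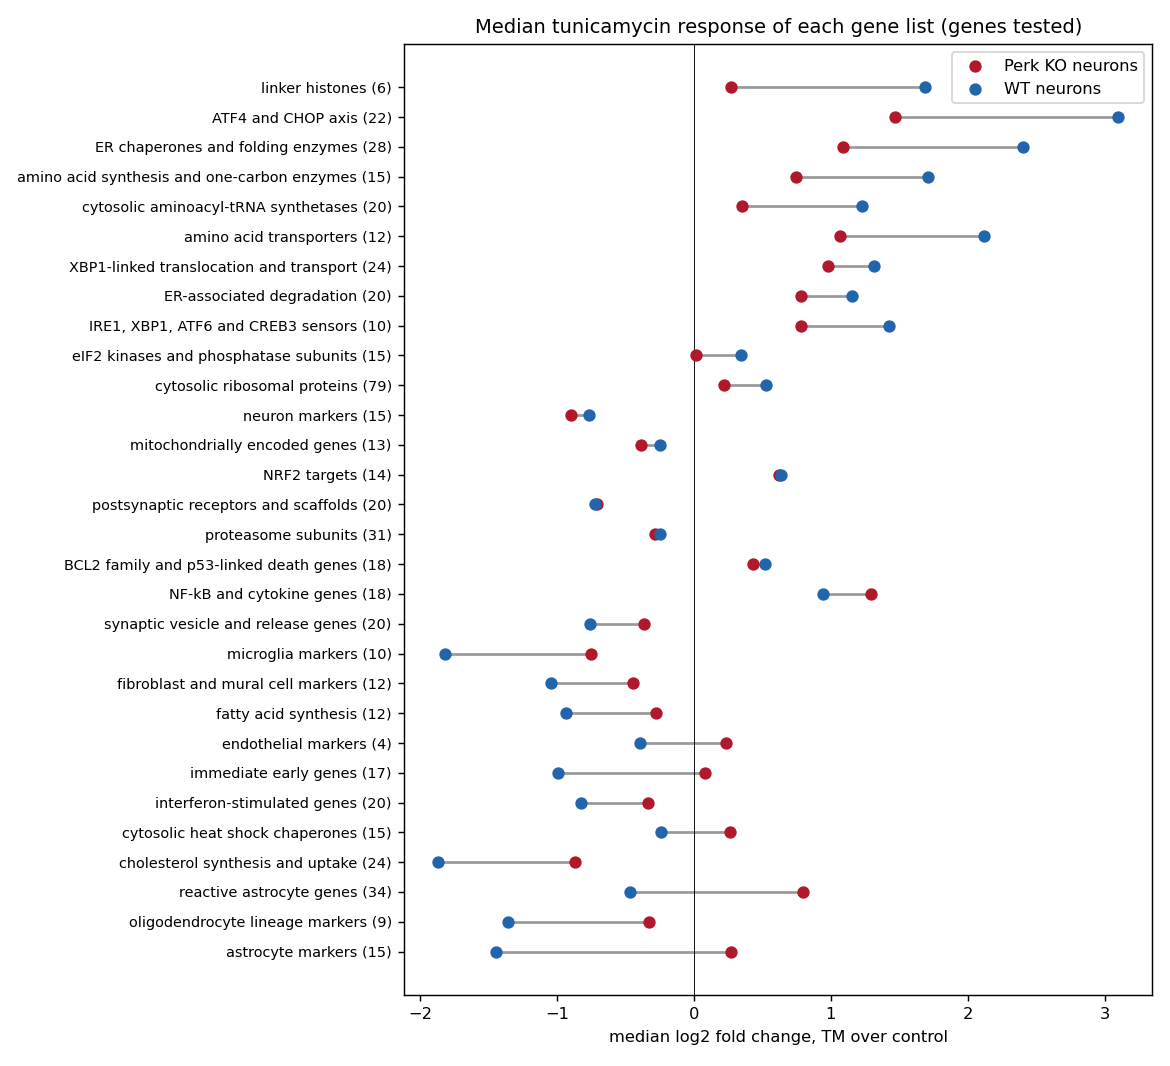
Median log2 fold change with TM of the tested genes of each list, in Perk KO neurons (red) and WT neurons (blue), ordered by the median interaction; the number of genes tested stands in parentheses. The ER stress and amino acid lists at the top rise further in WT neurons, and the lipid, glial and heat shock lists at the bottom stand higher in Perk KO neurons.

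Genes of cholesterol synthesis and uptake showed the opposite pattern, a fall with TM that was smaller in Perk KO neurons. Of 24 genes tested 17 fell in Perk KO and 22 in WT neurons, with medians of -0.87 in Perk KO and -1.87 in WT neurons. The interaction was higher for 19, beside 14.5% over all genes, and lower for 1. The genotypes differed before TM as well: 21 of the 24 were lower in Perk KO controls than in WT controls and 0 higher, beside 9.06% of all genes lower. The summed level was 2258, 1977 and 2255 CPM in TM-treated and 3826, 3187 and 3477 CPM in control Perk KO neurons, against 1643, 1594 and 1653 CPM in TM-treated and 5121, 4933 and 5007 CPM in control WT neurons. In both genotypes TM-treated libraries stood below controls, Perk KO controls stood below WT controls, and TM-treated Perk KO libraries stood above TM-treated WT libraries.

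Hmgcs1, an early enzyme of the mevalonate pathway, had 283, 254 and 297 CPM in TM-treated and 878, 689 and 782 CPM in control Perk KO neurons, against 163, 171 and 161 CPM in TM-treated and 961, 897 and 1062 CPM in control WT neurons. No groups overlapped, in the order just given for the sum. Its response was -1.49 ± 0.10 in Perk KO and -2.56 ± 0.11 in WT neurons, and the interaction was 1.06 ± 0.14 (adjusted p = 0.000244). Srebf2, the transcription factor that induces this pathway, had 279, 252 and 264 CPM in TM-treated and 352, 314 and 333 CPM in control Perk KO neurons, against 124, 124 and 145 CPM in TM-treated and 447, 476 and 430.4 CPM in control WT neurons. Its groups kept the same order without overlap, and its interaction was 1.45 ± 0.12 (adjusted p = 1.01e-05). Dhcr7, which makes cholesterol in its last step, had a response of -0.17 in Perk KO, which was not called, and -1.81 in WT neurons, an interaction of 1.64 ± 0.12 (adjusted p = 4.5e-06). The gene with a lower interaction was Mvd, the mevalonate diphosphate decarboxylase, which fell in both genotypes, with responses of -1.48 ± 0.13 in Perk KO and -0.64 ± 0.12 in WT neurons and an interaction of -0.84 ± 0.18 (adjusted p = 0.00429). Idi1, Fdps, Lss and Ebp, later enzymes of the same pathway, had no called interaction.

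Fatty acid genes behaved likewise, with 9 of 12 higher and 0 lower in the interaction, beside 14.5% and 15.4% of all genes. Before TM 4 of the 12 were lower in Perk KO controls than in WT controls, beside 9.06% of all genes. With the replicate number of each treatment as a block, 5 were lower and 2 higher in the controls. Thrsp, a regulator of lipogenesis, had 54.0, 42.5 and 37.7 CPM in TM-treated and 80.0, 68.9 and 70.0 CPM in control Perk KO neurons, against 3.39, 3.9 and 3.04 CPM in TM-treated and 65.0, 53.8 and 52.2 CPM in control WT neurons. TM-treated WT libraries stood far below all others, while TM-treated Perk KO libraries overlapped WT controls. Its interaction of 3.34 ± 0.21 (adjusted p = 1.4e-06) was the highest of the list. Scd1 and Scd2, the stearoyl-CoA desaturases, had interactions of 1.52 ± 0.14 (adjusted p = 1.83e-05) and 1.66 ± 0.15 (adjusted p = 1.56e-05). Scd1 rose in Perk KO neurons, by 0.38 ± 0.10, and fell in WT neurons, with a response of -1.14 ± 0.10. Its Perk KO controls already differed from WT controls by -0.78 ± 0.10 (adjusted p = 0.00184). Fasn and Acaca, the synthase and the carboxylase of the pathway, had interactions of -0.07 and -0.23 that were not called (adjusted p = 0.744 and 0.154).

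Of 15 astrocyte markers tested, 5 rose and 1, Slc1a3, fell with TM in Perk KO neuron cultures, with a median of 0.27, while 14 fell in WT cultures, with a median of -1.45. The interaction was higher for 14 and lower for 0, beside 14.5% and 15.4% of all genes. Before TM 5 of the 15 were higher in Perk KO controls and 0 lower, beside 9.72% of all genes higher. With the replicate number of each treatment as a block, 9 were higher in the controls. The summed level of 16 markers was 6962, 5606 and 5526 CPM in TM-treated and 5895, 6034 and 5844 CPM in control Perk KO neurons, against 1573, 1436 and 1466 CPM in TM-treated and 4866, 4452 and 4400.1 CPM in control WT neurons. The TM-treated WT libraries stood below all 9 others, and the TM-treated Perk KO libraries overlapped their controls. Summed neuron markers were lower with TM in both genotypes, at 3308, 3638 and 3419 CPM in TM-treated Perk KO neurons, against 6110, 5541 and 5610 CPM in their controls, and at 3511, 3401 and 3240 CPM in TM-treated WT neurons, against 6622, 6184 and 6730 CPM in theirs.

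Glul, the glutamine synthetase of astrocytes, had 1243, 933 and 1013 CPM in TM-treated and 965, 853 and 823 CPM in control Perk KO neurons, against 103, 95.3 and 102 CPM in TM-treated and 777, 628 and 573 CPM in control WT neurons. TM-treated WT libraries stood far below the 9 others, and the Perk KO groups overlapped. Its interaction was 3.00 ± 0.19 (adjusted p = 1.2e-06). Aldh1l1, a folate enzyme used as an astrocyte marker, had 205, 140.2 and 149.9 CPM in TM-treated and 151, 151 and 151 CPM in control Perk KO neurons, against 24.2, 21.9 and 24.2 CPM in TM-treated and 149, 154 and 129 CPM in control WT neurons. TM-treated WT libraries again stood apart below the others, which overlapped, and the interaction was 2.75 ± 0.18 (adjusted p = 1.95e-06). Slc1a3, the glutamate transporter GLAST, fell in both genotypes, with responses of -1.19 ± 0.09 in Perk KO and -2.50 ± 0.09 in WT cultures and an interaction of 1.31 ± 0.13 (adjusted p = 2.38e-05). The water channel Aqp4 differed before TM: it had 263, 473 and 294 CPM in TM-treated and 233, 266 and 249.7 CPM in control Perk KO neurons, against 13.5, 14.0 and 8.06 CPM in TM-treated and 76.2, 58.1 and 118 CPM in control WT neurons. Perk KO controls stood above WT controls by 1.57 ± 0.28 (adjusted p = 0.00684) and overlapped TM-treated Perk KO libraries, and the interaction was 3.29 ± 0.40 (adjusted p = 0.000123). Slc1a2, the transporter GLT-1, was the one marker tested without a called interaction, at 0.74 ± 0.29 (adjusted p = 0.0735). Slc25a18, a mitochondrial glutamate carrier, was among the 12 highest interactions named by size, at 3.78 ± 0.17 (adjusted p = 2.1e-07). It had 91.4, 66.8 and 71.9 CPM in TM-treated and 63.9, 69.3 and 66.0 CPM in control Perk KO neurons, against 5.09, 4.89 and 5.29 CPM in TM-treated and 63.4, 60.6 and 57.0 CPM in control WT neurons, and TM-treated WT libraries alone stood apart. Dio2, the deiodinase of astrocytes, had 3.80 ± 0.68 (adjusted p = 0.00145), and its controls were higher in Perk KO by 2.03 ± 0.38 (adjusted p = 0.00892).

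For the oligodendrocyte lineage 6 of 9 tested markers had a higher interaction and 1 a lower one, beside 14.5% and 15.4% of all genes. Pdgfra, the receptor of oligodendrocyte precursors, had 5.99, 3.9 and 3.49 CPM in TM-treated and 5.67, 4.19 and 6.5 CPM in control Perk KO neurons, against 1.7, 1.76 and 2.35 CPM in TM-treated and 30.3, 54.0 and 57.7 CPM in control WT neurons. WT controls stood far above the 9 other libraries, and Perk KO controls already overlapped TM-treated Perk KO libraries. The controls differed by -3.11 ± 0.28 (adjusted p = 0.000258) and the interaction was 4.32 ± 0.41 (adjusted p = 2.32e-05). Olig1 had 187, 142 and 188 CPM in TM-treated and 221, 249.1 and 263 CPM in control Perk KO neurons, against 51.3, 55.1 and 75.7 CPM in TM-treated and 260.2, 275 and 269 CPM in control WT neurons. TM-treated libraries stood below controls in both genotypes, those of WT far below, and the interaction was 1.64 ± 0.20 (adjusted p = 0.000143). Mog, a myelin protein, was the lower one, at -2.65 ± 0.49 (adjusted p = 0.00196). Of 10 microglia markers tested 2 (Csf1r and C1qb) and of 12 fibroblast and mural markers 4 had a higher interaction and 0 a lower one. In each list 6 were higher in Perk KO controls than in WT controls, beside 9.72% of all genes. The microglia count is near the 14.5% of all genes with a higher interaction. It was 0 in the fit of all 24 libraries, and 4 (with 1 lower) with the replicate number of each treatment as a block. The fibroblast count was 2 without Perk KO control replicate 1 or 3, TM-treated Perk KO replicate 3 or TM-treated WT replicate 1. The sum of 13 microglia markers was 66.0 to 95.9 CPM in TM-treated and 86.7 to 122 CPM in control Perk KO neurons, against 31.1 to 39.3 CPM in TM-treated and 43.0 to 67.6 CPM in control WT neurons. Of 4 endothelial markers tested, too few to set beside that share, 1 (Kdr) was called, and this call was lost without WT control replicate 2 or TM-treated WT replicate 2 (adjusted p = 0.0506 and 0.0569). The part of these cell types in the other results was not tested.

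**Figure D5:**
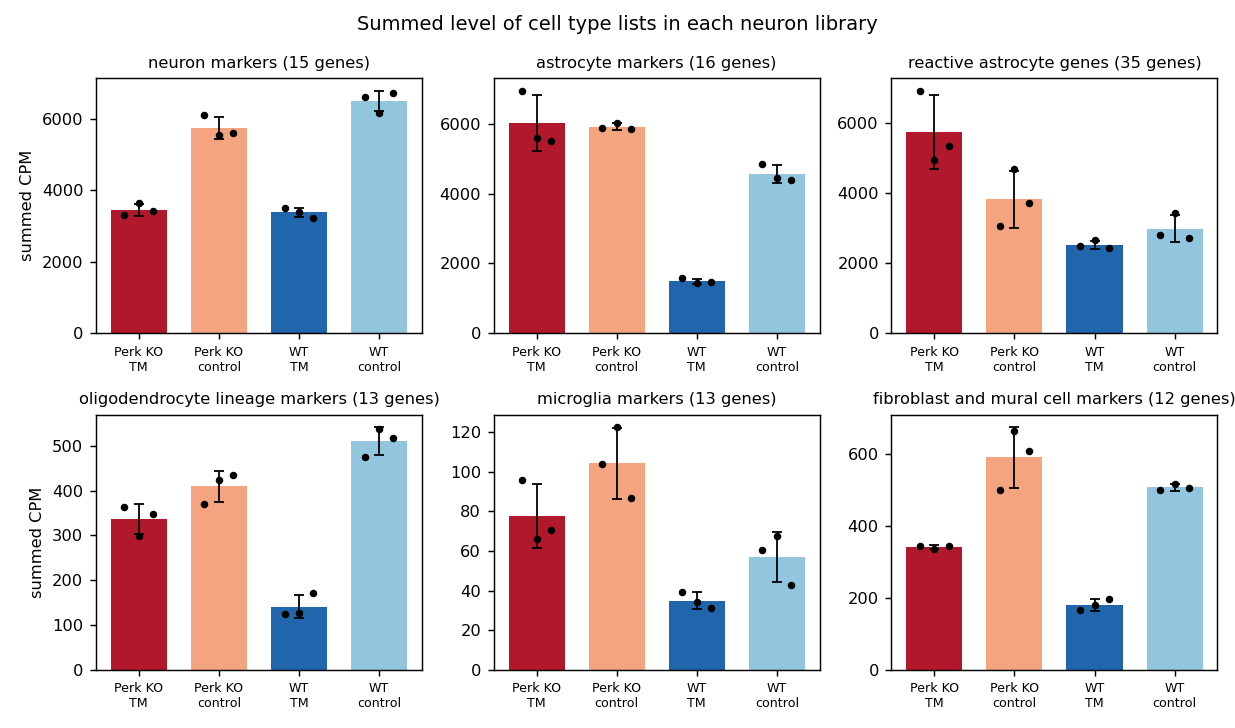
Summed CPM of cell type lists in each neuron library, as the mean ± SD of 3 libraries with the libraries as points. Neuron markers stand at 3240 to 3638 CPM in both TM-treated groups, while astrocyte markers stand at 5526 to 6962 CPM in TM-treated Perk KO and 1436 to 1573 CPM in TM-treated WT neurons.

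Reactive astrocyte genes rose in Perk KO cultures. Of 34 tested 18 rose and 1 fell in Perk KO cultures, while 8 rose and 13 fell in WT cultures, with medians of 0.80 in Perk KO and -0.47 in WT cultures. The interaction was higher for 16 and lower for 2, beside 14.5% and 15.4% of all genes. Over all genes 16.8% rose and 13.7% fell in Perk KO cultures, and 27.7% rose and 23.2% fell in WT cultures. Before TM 9 of the 34 were already higher in Perk KO controls and 0 lower, beside 9.72% of all genes higher. With the replicate number of each treatment as a block, 17 were higher in the controls. Steap4, a metalloreductase, had 74.4, 66.3 and 55.7 CPM in TM-treated and 5.31, 11.1 and 8.14 CPM in control Perk KO neurons, against 2.32, 2.09 and 1.12 CPM in TM-treated and 2.16, 4.32 and 2.46 CPM in control WT neurons. The 9 other libraries stood far below the TM-treated Perk KO ones. The interaction was 3.71 ± 0.46 (adjusted p = 0.000142), and its controls were higher in Perk KO by 1.44 ± 0.32 (adjusted p = 0.0159). S1pr3, a sphingosine phosphate receptor, had 2.97 ± 0.30 (adjusted p = 3.04e-05), and Serping1, an inhibitor of complement, 2.59 ± 0.29 (adjusted p = 6.63e-05). The lower ones were Ptx3, a soluble pattern receptor, and Ptgs2, the inducible cyclooxygenase, at -1.98 ± 0.29 (adjusted p = 0.000364) and -1.93 ± 0.35 (adjusted p = 0.00149). The list summed to 4937 to 6936 CPM in TM-treated and 3059 to 4688 CPM in control Perk KO neurons. In WT neurons it summed to 2435.7 to 2649.5 CPM with TM and 2722 to 3425 CPM in controls. Summed astrocyte markers, given above, were also higher in TM-treated Perk KO than in TM-treated WT libraries. In Perk KO neurons those markers overlapped between TM-treated and control libraries, and in WT neurons they fell with TM. Gja1 and Gfap, astrocyte genes themselves, had interactions of 1.25 ± 0.13 (adjusted p = 3.1e-05) and 1.24 ± 0.26 (adjusted p = 0.00381).

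Most NF-kB and cytokine genes rose in both genotypes, and some of them further in Perk KO neurons. Of 18 NF-kB and cytokine genes tested 17 rose in Perk KO and 13 in WT neurons, beside 16.8% and 27.7% of all genes. A higher interaction was called for 6 and a lower one for 1, beside 14.5% and 15.4% of all genes. Tlr2, a receptor for bacterial lipoproteins, had 99.8, 52.8 and 59.6 CPM in TM-treated and 4.77, 7.26 and 4.59 CPM in control Perk KO neurons, against 6.11, 4.84 and 6.62 CPM in TM-treated and 3.31, 3.58 and 2.65 CPM in control WT neurons. The TM-treated Perk KO libraries stood above all others, with an interaction of 2.81 ± 0.38 (adjusted p = 0.000225). Ccl2, which attracts monocytes, had 77.7, 49.6 and 59.6 CPM in TM-treated and 5.31, 7.6 and 7.38 CPM in control Perk KO neurons, against 16.1, 18.02 and 11.9 CPM in TM-treated and 2.96, 4.27 and 6.88 CPM in control WT neurons. TM-treated libraries stood above controls in both genotypes and higher in Perk KO, with an interaction of 1.49 ± 0.39 (adjusted p = 0.0131). Nfkbia, the inhibitor that NF-kB induces against itself, rose by 1.29 ± 0.15 in Perk KO and fell, with a change of -0.56 ± 0.15, in WT neurons. Icam1, an adhesion molecule, had 0.91 ± 0.24 (adjusted p = 0.0136). The lower one was Cxcl1, which attracts neutrophils, at -1.24 ± 0.43 (adjusted p = 0.0444), and this call was lost when any one of 8 libraries was left out. Tnf and Cxcl2, secreted cytokines, rose by 2.78 and 4.71 in Perk KO and by 4.34 and 5.44 in WT neurons without a called interaction. Interferon-stimulated genes differed from these in their response to TM: of 20 genes 3 rose and 5 fell in Perk KO neurons, with a median of -0.33, and 1 rose and 14 fell in WT neurons, with a median of -0.82. The 3 that rose in Perk KO neurons are near the 16.8% of all genes. Falls over all genes were 13.7% in Perk KO and 23.2% in WT neurons. Of these 20, 6 had a higher interaction and 0 a lower one, beside 14.5% and 15.4% of all genes. Before TM 4 were higher in Perk KO controls and 0 lower, beside 9.72% of all genes higher, and 6 were higher with the replicate number of each treatment as a block. The higher interactions included those of Gbp2, a guanylate-binding protein, at 2.93 ± 0.33 (adjusted p = 6.86e-05), and Irf1, an interferon regulatory factor, at 1.52 ± 0.22 (adjusted p = 0.000417). Gbp2 had 76.7, 46.3 and 54.6 CPM in TM-treated and 11.8, 15.9 and 13.8 CPM in control Perk KO neurons, against 6.73, 6.76 and 5.13 CPM in TM-treated and 7.63, 13.2 and 12.3 CPM in control WT neurons. TM-treated Perk KO libraries stood above all controls and TM-treated WT libraries below them. The summed microglia markers given above were higher in TM-treated Perk KO than in TM-treated WT libraries as well, and their part in these results was not tested.

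Genes of neuronal activity moved partly before TM. Of 17 immediate early genes 8 had a higher interaction and 0 a lower one, beside 14.5% and 15.4% of all genes. In Perk KO controls 8 of the 17 were lower than in WT controls, beside 9.06% of all genes. With the replicate number of each treatment as a block, 13 were lower in the controls and 1 had a lower interaction. Npas4, a factor induced by calcium entry in neurons, had 11.4, 14.8 and 18.7 CPM in TM-treated and 10.9, 5.25 and 8.96 CPM in control Perk KO neurons, against 1.41, 1.98 and 2.19 CPM in TM-treated and 18.1, 14.2 and 16.8 CPM in control WT neurons. TM-treated WT libraries stood far below the others, and TM-treated Perk KO libraries overlapped WT controls. Its interaction was the highest of the list, 3.96 ± 0.39 (adjusted p = 2.52e-05). Fos had 25.7, 24.4 and 29.6 CPM in TM-treated and 30.4, 20.2 and 24.9 CPM in control Perk KO neurons, against 16.5, 10.7 and 13.3 CPM in TM-treated and 74.2, 50.6 and 48.6 CPM in control WT neurons. Its Perk KO groups overlapped and stood between the TM-treated WT libraries and the WT controls. Perk KO controls differed from WT controls by -1.20 ± 0.20 (adjusted p = 0.00577), and the interaction was 2.17 ± 0.29 (adjusted p = 0.000224). Jun had 238, 216 and 252 CPM in TM-treated and 83.3, 88.1 and 85.9 CPM in control Perk KO neurons, against 96.3, 90.0 and 103 CPM in TM-treated and 83.6, 90.9 and 73.9 CPM in control WT neurons. Its controls overlapped, and TM-treated Perk KO libraries stood above the 9 others, with an interaction of 1.24 ± 0.13 (adjusted p = 4.28e-05). Dusp1, a phosphatase of MAP kinases, rose by 1.22 ± 0.15 in Perk KO and fell, with a change of -0.47 ± 0.15, in WT neurons.

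Of 20 synaptic vesicle genes 10 fell in Perk KO and 15 in WT neurons. A higher interaction was called for 11 and a lower one for 0, beside 14.5% and 15.4% of all genes. The higher count was 6 without TM-treated WT replicate 2. The genotypes differed before TM as well: 8 of the 20 were lower in Perk KO controls and 0 higher, beside 9.06% of all genes lower. With the replicate number of each treatment as a block, 11 were lower in the controls. Vamp2, the vesicle SNARE, had 578, 601 and 660.0 CPM in TM-treated and 638, 615 and 634 CPM in control Perk KO neurons, against 429.9, 419 and 532 CPM in TM-treated and 741, 751 and 793 CPM in control WT neurons. The TM-treated WT libraries stood below the 9 others, and TM-treated and control Perk KO libraries overlapped. It had a response of -0.73 ± 0.10 in WT neurons and an interaction of 0.69 ± 0.14 (adjusted p = 0.00264). Of 20 postsynaptic genes 14 fell in Perk KO and 12 in WT neurons, with medians of -0.71 in Perk KO and -0.73 in WT neurons. The 3 called interactions, all higher, were those of Grin1, Gria1 and Dlg4, a count near the 14.5% of all genes. Grin1, the obligate NMDA receptor subunit, had 178, 180.1 and 196 CPM in TM-treated and 167, 162 and 158 CPM in control Perk KO neurons, against 111, 111 and 137 CPM in TM-treated and 230.3, 226 and 231 CPM in control WT neurons. In Perk KO neurons TM-treated libraries stood above controls, and in WT neurons below them, with an interaction of 1.13 ± 0.12 (adjusted p = 5.77e-05). Without TM-treated WT replicate 2 the count was 1, as it was in the fit of all 24 libraries and without a filter on low counts, and it was 5 with the GC correction, alone or with the replicate block. The call of Dlg4 was lost without any one of 7 libraries, and in the fit of all 24 libraries and without a filter on low counts neither Dlg4 nor Gria1 was called.

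Of the list of 15 neuron markers 3 had a lower interaction (Rbfox3, Neurod6 and Tbr1) and 3 a higher one (Stmn2, Snap25 and Gad1), near the 15.4% and 14.5% of all genes. Neurod6, a neuronal transcription factor, had 26.8, 26.4 and 19.9 CPM in TM-treated and 138, 117 and 95.6 CPM in control Perk KO neurons, against 56.0, 54.6 and 43.1 CPM in TM-treated and 128, 122 and 128 CPM in control WT neurons. Controls of the genotypes overlapped, and TM-treated Perk KO libraries stood below TM-treated WT libraries. It fell in both genotypes, with an interaction of -0.97 ± 0.21 (adjusted p = 0.00515), which a correction for GC content did not call (adjusted p = 0.0857). Tbr1, a transcription factor of cortical neurons, had 18.7, 16.1 and 21.7 CPM in TM-treated and 31.8, 36.3 and 37.8 CPM in control Perk KO neurons, against 55.2, 56.7 and 61.1 CPM in TM-treated and 39.9, 39.4 and 48.8 CPM in control WT neurons. No groups overlapped, and it fell in Perk KO and rose in WT neurons, with an interaction of -1.34 ± 0.18 (adjusted p = 0.000227). Bhlhe22 and Zbtb18, also transcription factors, are not on the list. Bhlhe22 had 51.5, 52.3 and 47.1 CPM in TM-treated and 134, 138 and 135 CPM in control Perk KO neurons, against 123, 117 and 113 CPM in TM-treated and 127, 135 and 117 CPM in control WT neurons. Zbtb18 had 121, 128 and 123 CPM in TM-treated and 301, 287 and 275 CPM in control Perk KO neurons, against 325, 333 and 302 CPM in TM-treated and 188, 202 and 262 CPM in control WT neurons. Their TM-treated Perk KO libraries stood below all other libraries of the gene, and the interactions were -1.33 ± 0.11 (adjusted p = 9.83e-06) and -1.77 ± 0.15 (adjusted p = 1.33e-05). Dpysl3, a microtubule-binding protein of growing axons, and Lzts1, a postsynaptic protein, had interactions of -1.15 ± 0.10 (adjusted p = 1.59e-05) and -1.60 ± 0.12 (adjusted p = 4.3e-06). Bhlhe22, Zbtb18, Dpysl3 and Lzts1 were named because they had the smallest p in their class. The higher count of the neuron markers was 1 in the fit of all 24 libraries and 5 with the GC correction and the replicate block, and it was 0 without TM-treated WT replicate 2 and 1 without any one of 6 other libraries: Perk KO control replicates 2 and 3, TM-treated Perk KO replicate 3, WT control replicates 1 and 3 and TM-treated WT replicate 3.

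Other genes fell in Perk KO neurons against a rise or no call in WT neurons. Srsf3, a splicing factor, had 89.2, 91.6 and 88.9 CPM in TM-treated and 179, 161 and 159 CPM in control Perk KO neurons, against 314, 315 and 277 CPM in TM-treated and 126, 101 and 148 CPM in control WT neurons. No groups overlapped, with TM-treated Perk KO libraries the lowest and TM-treated WT libraries the highest, and the interaction was -2.16 ± 0.17 (adjusted p = 5.42e-06). Myrip, which links vesicles to myosin, had -1.78 ± 0.15 (adjusted p = 1.12e-05). Foxk2, a forkhead factor, and Naa25, a subunit of an N-terminal acetyltransferase, fell in Perk KO neurons, with responses of -0.63 ± 0.07 and -0.70 ± 0.08, and their interactions were -0.76 ± 0.10 (adjusted p = 0.000213) and -0.85 ± 0.11 (adjusted p = 0.000223).

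Of 15 cytosolic heat shock chaperones 8 had a higher interaction and 0 a lower one, beside 14.5% and 15.4% of all genes. The median response was 0.26 in Perk KO and -0.24 in WT neurons. Hspa8, the constitutive Hsp70, had 5224, 3705 and 3942 CPM in TM-treated and 2546, 2473 and 2133 CPM in control Perk KO neurons, against 1950.3, 1729 and 1706 CPM in TM-treated and 3123, 2988 and 2532 CPM in control WT neurons. TM-treated Perk KO libraries stood above all controls and TM-treated WT libraries below them, with an interaction of 1.53 ± 0.20 (adjusted p = 0.000175). Hspa1a and Hspa1b, the inducible Hsp70 genes, are near-identical copies whose counts are uncertain, with interactions of 1.04 ± 0.24 (adjusted p = 0.00657) and 0.85 ± 0.23 (adjusted p = 0.0146). Dnajb1, an Hsp40, had 0.74 ± 0.15 (adjusted p = 0.003). Zfp36l1, an RNA-binding protein that destabilises mRNA, and Mettl7a1, a membrane-bound methyltransferase, rose in Perk KO neurons by 1.67 ± 0.14 and 1.71 ± 0.10, with interactions of 1.96 ± 0.21 (adjusted p = 4.21e-05) and 1.68 ± 0.15 (adjusted p = 1.4e-05).

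Genes that rose in Perk KO and fell in WT neurons included Plpp3, a phosphatase of lysophospholipids, Gprc5b, an orphan receptor, Plxnb1, a semaphorin receptor, and Vwa1, a matrix protein. Plpp3 had 406, 344 and 345 CPM in TM-treated and 247, 238 and 235 CPM in control Perk KO neurons, against 35.8, 35.9 and 45.0 CPM in TM-treated and 197, 173 and 180.3 CPM in control WT neurons, and its interaction was 2.85 ± 0.15 (adjusted p = 4.59e-07). Gprc5b had 2.13 ± 0.12 (adjusted p = 7.02e-07), Plxnb1 1.81 ± 0.11 (adjusted p = 7.65e-07) and Vwa1 3.23 ± 0.20 (adjusted p = 1.2e-06). For all 4 the TM-treated Perk KO libraries stood above the 9 others and the TM-treated WT libraries below them. Further genes with the highest interactions by size were Ecm2, Fgl2, Rab7b, Cldn10, Ndp and Sult1a1, with values between 3.43 and 4.22. Ecm2, a matrix protein, had 15.9, 18.6 and 15.1 CPM in TM-treated and 5.18, 6.2 and 8.36 CPM in control Perk KO neurons, against 0.566, 0.824 and 0.16 CPM in TM-treated and 3.06, 4.03 and 4.48 CPM in control WT neurons. TM-treated Perk KO libraries stood above all controls and TM-treated WT libraries below them. Rnf181, a ubiquitin ligase, had the highest value of the genes named by size, 4.44 ± 1.36 (adjusted p = 0.0275), but its libraries scattered within groups: it had 5.71, 28.3 and 50.9 CPM in TM-treated and 3.29, 3.35 and 3.72 CPM in control Perk KO neurons, against 6.62, 6.37 and 9.51 CPM in TM-treated and 52.5, 4.42 and 2.78 CPM in control WT neurons. Without WT control replicate 1 its interaction was 1.98 (adjusted p = 0.127), and the call was also lost without any one of the 3 Perk KO controls, TM-treated Perk KO replicate 3 or TM-treated WT replicate 1 or 2, and with the replicate number as a block over all libraries or within treatment (adjusted p = 0.0501 and 0.0536).

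Death genes mostly rose with TM in both genotypes and showed no common direction of the interaction. Of 18 genes of the BCL2 family and p53 response 12 rose in Perk KO and 11 in WT neurons. A lower interaction was called for 4 (Bbc3, Pmaip1, Hrk and Mdm2) and a higher one for 2 (Bcl2l11 and Casp12). These counts are near the 15.4% and 14.5% of all genes. Bcl2l11 encodes BIM, a death activator known as a CHOP target. It had 22.96, 32.8 and 29.8 CPM in TM-treated and 9.19, 11.1 and 11.4 CPM in control Perk KO neurons, against 11.9, 13.3 and 15.3 CPM in TM-treated and 9.04, 9.58 and 11.5 CPM in control WT neurons. TM-treated Perk KO libraries stood above the 9 others, with an interaction of 1.00 ± 0.23 (adjusted p = 0.00662). Pmaip1 (NOXA), another pro-death gene, had -0.73 ± 0.17 (adjusted p = 0.00625), which a correction for GC content did not call (adjusted p = 0.123), and Hrk, a pro-death gene of neurons, had -0.64 ± 0.10 (adjusted p = 0.000708). In the fit of all 24 libraries 0 lower interactions of this list were called. Casp12, an ER-bound caspase, had a response of 0.32 in Perk KO and -1.41 in WT neurons, and an interaction of 1.73 ± 0.43 (adjusted p = 0.00981).

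Proteasome and mitochondrially encoded genes gave few calls. Of 31 proteasome subunits 7 fell in Perk KO and 13 in WT neurons, 2 had a lower interaction (Psmc2 and Psmd6) and 1 a higher one (Psmd11), below the background shares. With the replicate number of each treatment as a block 5 had a lower one. Without TM-treated Perk KO replicate 1 the lower count was 6. It was 0 without WT control replicate 2 or TM-treated WT replicate 1, 2 without Perk KO control replicate 3, and 1 without any other single library, and the higher call was lost without any one of 5 libraries. Of 13 mitochondrially encoded genes 0 had a called interaction in edgeR's test, and 5 were higher in Perk KO controls than in WT controls, a count of 10 with the replicate number of each treatment as a block.

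The same contrast in astrocytes, measured in 12 other libraries, called 5203 of 15114 genes (34.4%), 2211 lower (14.6%) and 2992 higher (19.8%). Of 14396 genes tested in both cell types 2602 were called in both, which is 58.3% of the neuron calls and 50.9% of the astrocyte calls among these genes. Of them 1086 were lower in both, 1438 higher in both and 78 opposite. Across genes the interactions of neurons and astrocytes, which share no library, had a Pearson correlation of 0.631. The difference between the cell types was called for 878 of 15924 genes (5.51%), 546 lower (3.43%) and 332 higher (2.08%) in neurons.

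This test called few genes of the ER stress lists as different between the cell types, which does not show that they were alike. It was called for 2 of 22 genes of the ATF4 and CHOP axis and 1 of 28 ER chaperones, all lower in neurons, and by edgeR for 0 of the ER-associated degradation, transporter and eIF2 lists. At an unadjusted p under 0.05 these 3 lists held 2, 2 and 1 genes, and DESeq2 called 1, 0 and 0. For the ATF4 and CHOP axis these counts were 6 and 3, all lower in neurons. In the astrocyte fit 4 genes of that axis were lower and 1 higher (median -0.45), against 17 lower in neurons (median -1.24). Of the transporters 2 were lower and 1 higher in astrocytes, against 9 lower in neurons. For ER chaperones the astrocyte counts were 16 lower and 1 higher, for ER-associated degradation 11 lower and for the eIF2 list 7 lower. Gdf15 had an interaction of -3.00 ± 0.29 in neurons and -0.60 ± 0.38 in astrocytes, a difference of -2.27 ± 0.52 (adjusted p = 0.0127). Hspa5 had -2.02 ± 0.15 in neurons and -0.87 ± 0.25 in astrocytes, a difference of -1.02 ± 0.30 (adjusted p = 0.0477). Tes had -3.99 ± 0.16 in neurons and -1.97 ± 0.24 in astrocytes, a difference of -1.89 ± 0.30 (adjusted p = 0.000625).

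Other lists held more calls. The test was called for 3 of 6 linker histones, lower in neurons, and for 11 of 24 cholesterol genes, higher in neurons. Hist1h1d had -4.69 ± 0.41 in neurons and 1.40 ± 0.50 in astrocytes, a difference of -5.95 ± 0.67 (adjusted p = 1.53e-05), and Hist1h1c had -1.85 ± 0.18 in neurons and 0.24 ± 0.23 in astrocytes, a difference of -1.95 ± 0.31 (adjusted p = 0.000666). Hmgcs1 had 1.06 ± 0.14 in neurons and 0.11 ± 0.14 in astrocytes, a difference of 1.08 ± 0.21 (adjusted p = 0.00296). Hspa8 had 1.53 ± 0.20 in neurons and 0.21 ± 0.15 in astrocytes, a difference of 1.46 ± 0.25 (adjusted p = 0.00112). Of the 15 astrocyte markers 10 had a higher interaction in astrocytes as well, and the difference was called for 2 lower and 1 higher in neurons. Glul, with interactions of 3.00 in neurons and 2.68 in astrocytes, was not called as different (adjusted p = 0.309).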

How the data were processed

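Raw counts per gene were used as the authors deposited them. Per the submitters' processing notes, the tools were fastp, HISAT2 with the GRCm38.p6 genome, featureCounts and DESeq2. The sources used here do not give the annotation release or the strand setting. The library kit named in the labels does not mark strand, so a gene's counts may hold reads of an antisense neighbour. The tables of the 8 comparisons were joined by gene. Counts listed in more than 1 table were identical in 595092 of 595092 entries compared, with 0 that differed, and 96 further per-sample columns of the tables were not used.

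Genes that averaged 10 counts or more in the 12 neuron libraries were fitted with edgeR 4.0.16 in R 4.3.3 (quasi-likelihood test, TMM, 1 mean per group, 8 residual degrees of freedom, Benjamini-Hochberg adjustment over all genes tested). Standard errors are the log2 change divided by the square root of F. The method was tested on simulated data. Alternatives were no filter, DESeq2 size factors, DESeq2 1.42.0, a replicate block, an offset for GC content in 20 bins, all 24 libraries, and each library left out in turn. Deviations of same-numbered Perk KO and WT libraries from their group means correlated at 0.125 to 0.391 in all 6 pairs of the same treatment, against -0.328 to 0.131 for different numbers, and those of same-numbered libraries of different treatments, in either genotype, at -0.461 to 0.349, over 0.1 in 4 of 12 pairs. Libraries of different numbers and different treatments lay at -0.545 to 0.587. Deviations within a group depend on each other, so these correlations are not independent. The titles state no pairing, and a pairing of the genotypes within a treatment is possible but not established. A block for each number within each treatment was added after seeing the data.

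Genes named are 21 fixed genes, the 12 lowest and 12 highest called interactions among coding genes that averaged 100 counts or more, up to 4 of each of 30 lists and of each class by smallest p, and others described as members of a list. The members, lists and tests were chosen with earlier results of these data known. The markers of each cell type and the motifs searched were chosen in the same way, and promoters came from RefSeq. Replicate libraries were compared by chi-square, and no pair agreed within sampling noise (7.06 to 70.6 per gene). Total counts of 16.0 to 25.9 M set the precision of low genes. Values of a few single genes are not reported here.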

Additional observations from a re-analysis of the deposited data

Results flagged for a closer look

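The interaction of the genes given here differed between neurons and astrocytes by the test of the difference itself, in a fit of all 24 libraries. Values are log2 differences, neuron minus astrocyte, with adjusted p from edgeR's quasi-likelihood test over all genes. They come from that fit and need not equal the difference of the separate fits of neurons and astrocytes.

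Of the ER stress lists, Gdf15 at -2.27 ± 0.52 (adjusted p = 0.0127) and Hspa5 at -1.02 ± 0.30 (adjusted p = 0.0477) had lower interactions in neurons. Of genes outside those lists, so did Tes at -1.89 ± 0.30 (adjusted p = 0.000625), Fibin at -1.74 ± 0.51 (adjusted p = 0.0473), Adamts14 at -2.45 ± 0.67 (adjusted p = 0.0349) and Hk2 at -1.83 ± 0.45 (adjusted p = 0.0198). Linker histones did likewise, with Hist1h1d at -5.95 ± 0.67 (adjusted p = 1.53e-05), Hist1h1c at -1.95 ± 0.31 (adjusted p = 0.000666) and H1f0 at -0.997 ± 0.16 (adjusted p = 0.000641). Of the 15 heat shock genes 4 had a higher interaction in neurons, among them Hspa8 at 1.46 ± 0.25 (adjusted p = 0.00112), Hsph1 at 0.98 ± 0.23 (adjusted p = 0.0133) and Dnajb1 at 0.74 ± 0.19 (adjusted p = 0.0238). Psmd11 at 1.11 ± 0.21 (adjusted p = 0.00248) was higher too.

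Among inflammatory genes, Gbp2 at 2.61 ± 0.62 (adjusted p = 0.0152) and Oasl2 at 3.22 ± 0.81 (adjusted p = 0.0203) were higher in neurons and Icam1 at -1.19 ± 0.30 (adjusted p = 0.0224) lower. Icam1 had 0.91 ± 0.24 in neurons and 2.23 ± 0.18 in astrocytes. Hmgcs1 at 1.08 ± 0.21 (adjusted p = 0.00296) and Jun at 1.66 ± 0.39 (adjusted p = 0.0152) were higher in neurons.

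Cell type markers split. Tubb3 at 1.96 ± 0.39 (adjusted p = 0.00451), Pdgfra at 3.08 ± 0.79 (adjusted p = 0.0242), Cspg4 at 2.23 ± 0.49 (adjusted p = 0.0101) and Gja1 at 1.05 ± 0.28 (adjusted p = 0.0276) were higher in neurons. Aldh1l1 at -1.14 ± 0.25 (adjusted p = 0.0091), Olig1 at -0.93 ± 0.27 (adjusted p = 0.0456) and the glutamate receptor gene Gria1 at -3.83 ± 0.70 (adjusted p = 0.00211) were lower. Gria1 had 0.37 ± 0.10 in neurons and 4.33 ± 0.69 in astrocytes. Tubb3 had no called interaction in neurons, at 0.26 ± 0.14 (adjusted p = 0.179), and -1.57 ± 0.35 in astrocytes (adjusted p = 0.00486).

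Of the genes that fell in Perk KO neurons, Srsf3 at -1.67 ± 0.20 (adjusted p = 2.87e-05), Zbtb18 at -1.07 ± 0.21 (adjusted p = 0.00452) and Myrip at -2.65 ± 0.74 (adjusted p = 0.0398) were lower in neurons, and Myrip had too few counts for a test in astrocytes alone. Mettl7a1, which rose in Perk KO neurons and was not called in WT neurons, had a difference of -0.95 ± 0.27 (adjusted p = 0.0397), with 2.76 ± 0.21 in astrocytes.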

How the results depend on the processing

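The count of called interactions lay between 4139 and 5947 under the other settings and between 3700 and 5721 with a library left out, within 1.5 times of 4753. Of single named genes 1227 values under other settings kept direction and call, 52 lost the call, 12 gained it and 3 reversed, all 3 small: Psmc2 at 0.1011 with the GC correction and 0.064 with the GC correction and the replicate block, and mt-Atp6 at 0.1547 with the GC correction. With a library left out 1848 kept it, 92 lost it and 4 gained it. The causes were not tested.

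With the GC correction, 920 genes were higher in Perk KO controls and 59 had a lower interaction with neither response called; with the replicate block added that class held 57, deeper falls 65, smaller falls 493 and larger rises 70. In the fit of all 24 libraries smaller rises numbered 320, opposite responses with a rise in WT neurons 77, deeper falls 19 and larger rises 28. Without a filter on low counts the last 3 were 90, 25 and 26, and 164 genes had a higher three-way difference. DESeq2 called 1531 three-way differences, 795 higher. With the replicate block 3460 astrocyte interactions were lower.

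With a library left out, the control comparison called between 518 and 4072 genes (lower between 284 and 1849, higher between 195 and 2277). The classes ranged from 80 to 256 for rise in WT and fall in Perk KO neurons, 206 to 708 for falls in Perk KO neurons alone, 21 to 84 for deeper falls, 57 to 144 for a lower interaction with neither response called, 179 to 298 for smaller falls, and 19 to 61 for larger rises.

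A block for each replicate number within each treatment, chosen after seeing the data, called 5947 interactions, 3261 lower and 2686 higher, of which 4655 were shared with the fit without it. It called 4604 differences between the controls, 2519 of them higher. Among the named genes it lost the call of Rnf181 and gained 4, and it gained 1 higher call each among ER chaperones and amino acid enzymes and 1 lower call each among postsynaptic, NF-kB, interferon and fibroblast genes. With the replicate block over all 12 libraries 5114 interactions were called, 2636 lower and 2478 higher, and 4609 were shared with the fit without it. In the fit of all 24 libraries ER-associated degradation had 7 lower members, amino acid transporters 4 and ribosomal proteins 0, and ribosomal proteins had 17 with the GC correction and the replicate block. Among single genes that fit also lost Slc7a1 (adjusted p = 0.0587), Slc7a5 (0.108) and Slc1a4 (0.131). Depth limits genes near 1 CPM, such as Derl3 and Hist1h1d in controls.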

Other observations

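By annotated biotype, the interaction was called for 4512 of 14016 protein-coding genes tested (32.2%), 67 of 397 lincRNA genes (16.9%), 43 of 310 antisense genes (13.9%) and 39 of 582 processed pseudogenes (6.7%). These shares are not corrected for the counts of the genes, which set how small a change can be called.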
